A study of Mus musculus with 6 samples.

Results

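The T cell receptor complex and its first signalling steps were followed in irradiated mouse intestine through 9 genes: Cd3d, Cd3e, Cd3g, Cd247, Cd2, Cd5, Lck, Zap70 and Lat. Probes were matched to these genes by their platform symbol or an older alias. Of the 9 genes, 8 had a listed probe, with 14 probes among the 45281 of the array and the 19057 genes that the array names. Lck had no listed probe and was not analysed here. A gene was read on the probe that averaged highest over the 6 arrays, called its brightest probe, and the other probes were read beside it.

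The question of the study was which intestinal mRNAs differ when free ubiquitin (free Ub, the unconjugated protein) is given to irradiated mice. Male C57 mice (C57BL/6J in the methods), 4 weeks old by the sample labels, received 7 Gy of total body radiation in one dose, and intestine was taken at 3.5 days. Of the 6 samples, 3 came from mice given free Ub (free Ub 1 to 3) and 3 from mice given PBS (PBS 1 to 3), and each was hybridised to 1 Illumina MouseWG-6 v2 array. Every mouse was irradiated, no unirradiated intestine was among the samples, and the part of the intestine was not stated. The labels number the samples without saying that each is a separate mouse, so the p-values measure the spread between these samples. The labels put the injection after radiation, whereas the methods give older mice and an injection before radiation and a legend gives an earlier time.

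The T cell receptor recognises antigen with a pair of variable chains that cannot signal by themselves. The CD3 gamma, delta and epsilon chains and the zeta chain (Cd247) carry the signal into the cell through tyrosine motifs that the kinase LCK phosphorylates. The kinase ZAP-70 then docks on these motifs and phosphorylates LAT, the membrane adaptor on which the downstream complex is built, while CD2 and CD5 tune the signal. In the gut these genes are expressed by T cells within the epithelium and the lamina propria. Part of the intraepithelial T cells carries a receptor made of gamma and delta chains. Whether other cells of the tissue add to the signal of these genes was not tested.

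The CD3 genes are neighbours, so their start regions are shown together before their values. In the RefSeq annotation of GRCm38.p6, Cd3g lies on chromosome 9 from 44969572 to 44980431 on the minus strand, Cd3d from 44981769 to 44987052 on the plus strand, and Cd3e from 44998735 to 45009663 on the minus strand. The cluster spans 40092 bases, with 1337 bases between Cd3g and Cd3d and 11682 bases between Cd3d and Cd3e. The promoter table counts from a RefSeq transcript start at 44980431 for Cd3g, 44981786 for Cd3d and 45009611 for Cd3e, of which the last pair lie inside the span of the gene given above. The stretch from 250 to 53 bases before these starts, 198 bases and outside the annotated genes, reads 5′ to 3′ on the strand of the gene, with capitals for a match to one of the motifs searched.
Cd3g (chr9:44980484-44980681, minus strand): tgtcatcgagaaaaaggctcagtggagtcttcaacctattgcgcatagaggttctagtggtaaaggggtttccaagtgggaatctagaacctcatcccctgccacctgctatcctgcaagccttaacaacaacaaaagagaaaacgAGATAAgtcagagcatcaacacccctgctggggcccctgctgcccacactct
Cd3d (chr9:44981536-44981733, plus strand): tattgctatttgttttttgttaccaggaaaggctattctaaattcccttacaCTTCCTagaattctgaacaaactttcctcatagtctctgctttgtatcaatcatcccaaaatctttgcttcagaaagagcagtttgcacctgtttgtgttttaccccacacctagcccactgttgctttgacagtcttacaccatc
Cd3e (chr9:45009664-45009861, minus strand): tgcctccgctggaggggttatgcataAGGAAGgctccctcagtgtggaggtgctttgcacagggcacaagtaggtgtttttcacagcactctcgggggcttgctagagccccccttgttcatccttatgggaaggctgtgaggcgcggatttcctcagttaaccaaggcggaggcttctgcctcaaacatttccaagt
The motifs were searched on both strands: AGGAAG for ETS factors, AGATAA for GATA factors, TGTGGT for RUNX factors and TATAAA for a TATA box. The capitals mark AGATAA in Cd3g at 104 to 99 bases before the start, AGGAAG on the reverse strand in Cd3d at 198 to 193 bases, and AGGAAG on the forward strand in Cd3e at 224 to 219 bases, and none of these overlaps another. Over the same stretch of all 32851 promoters in the table, AGGAAG was found in 23.7%, AGATAA in 8.34%, TGTGGT in 11.4% and TATAAA in 9.08%, the last pair in none of the 3 CD3 genes. Bases nearer the start than 53 were not searched, so a TATA box there could not be seen. These letters are a description of the windows and were not tied to the array values.

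Of the 8 members with a probe, 0 passed the test in either direction between free Ub and PBS intestines. In limma over all probes, 0 members reached an unadjusted p under 0.05, lower or higher, where 3.4% of all genes reached it as lower and 2.34% as higher. After Benjamini-Hochberg adjustment 0 members were called, against 0.0577% of all genes. The mean was lower with free Ub for 6 members and higher for Cd3g and Cd5, and the median difference of the 8 was -0.10 log2, beside -0.00 over all genes. Differences here are in log2 signal, free Ub minus PBS, so that a value of -1 would be a fall by one doubling. In whole intestine, a difference in the number of T cells and one in the RNA of each T cell could not be told apart.

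**Figure D1:**
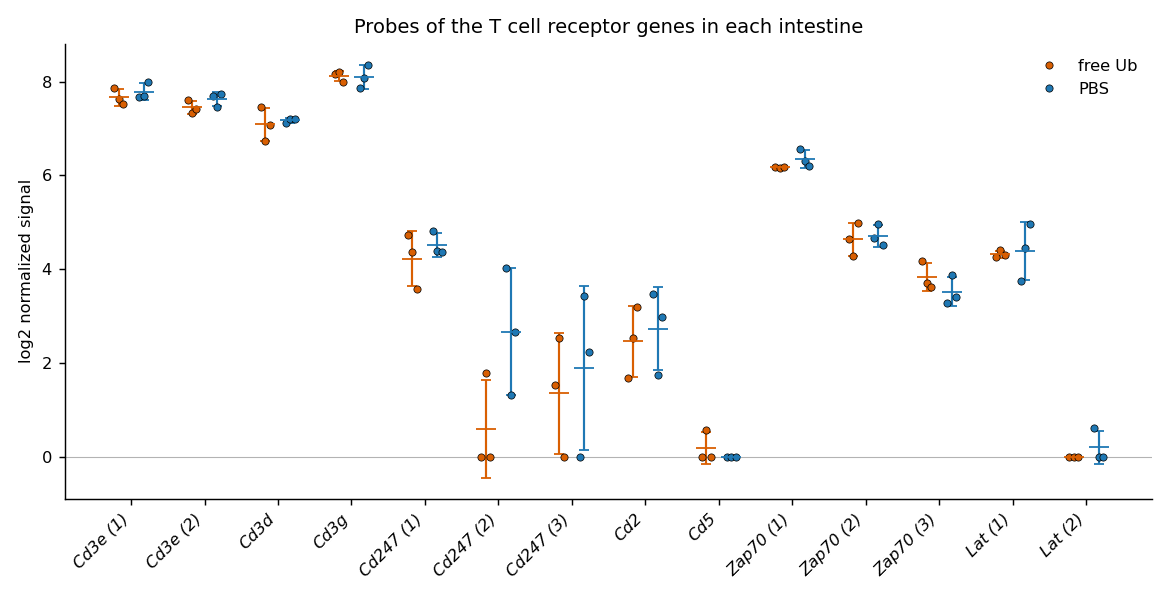
Log2 normalized signal of the 14 probes of the 8 measured genes (vertical axis), with 1 point per array, a horizontal bar at the group mean and error bars of 1 SD, free Ub (orange) left of PBS (blue). Numbers in brackets rank the probes of one gene by brightness. The groups overlap on 13 of the 14 probes, and the points of the dim probes of Cd247, Cd2 and Cd5 reach toward the floor at 0.

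The CD3 chains were read on bright probes and differed little. Cd3e, the epsilon chain that pairs with both of the other chains, had log2 signals of 7.86, 7.62 and 7.52 in free Ub intestines, against 7.68, 7.69 and 7.99 in PBS intestines. PBS 3 was the highest, free Ub 3 the lowest, and the groups overlapped. The means were 7.67 ± 0.18 with free Ub and 7.79 ± 0.18 with PBS (SD, n = 3 each), a difference of -0.12 with a 95% interval of -0.48 to 0.25 (limma, adjusted p = 0.920). As a ratio the interval ran from 0.715-fold to 1.19-fold.

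The second Cd3e probe gave 7.61, 7.33 and 7.42 in free Ub intestines, against 7.70, 7.46 and 7.74 in PBS intestines. Its difference of -0.18 had the same sign as that of the brightest probe and an interval of -0.49 to 0.12 (limma, adjusted p = 0.872). Over the 6 arrays the values of both Cd3e probes had a Pearson r of 0.74, a description over points that share their RNA and array.

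Cd3d, the delta chain, had 7.45, 6.74 and 7.07 in free Ub intestines, against 7.12, 7.21 and 7.19 in PBS intestines. Its highest and its lowest value were both in the free Ub group, where the SD was 0.35, against 0.05 in the PBS group. The difference was -0.08 with an interval of -0.60 to 0.43 (limma, adjusted p = 0.979), and it was 0.09 without free Ub 2.

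Cd3g, the gamma chain, had 8.16, 8.19 and 7.996 in free Ub intestines, against 7.85, 8.08 and 8.36 in PBS intestines. The PBS values enclosed the free Ub values. The difference was 0.02 with an interval of -0.38 to 0.42 (limma, adjusted p = 0.979), or 0.768-fold to 1.34-fold, and its sign turned with array weights (-0.13) and without PBS 1 (-0.10), free Ub 1 (-0.00) or free Ub 2 (-0.02).

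The zeta chain gene Cd247 lies on chromosome 1 from 165779952 to 165871153 and had 3 probes, none of them bright. Its brightest probe gave 4.74, 4.37 and 3.58 in free Ub intestines, against 4.81, 4.39 and 4.37 in PBS intestines. One low array, free Ub 3, carried the difference of -0.29 (interval -1.22 to 0.63, limma, adjusted p = 0.928), which was 0.03 without it. The second probe gave 0.00, 1.80 and 0.00 in free Ub intestines, the zeros being floor values, against 4.02, 1.32 and 2.67 in PBS intestines.

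The second Cd247 probe therefore had the widest gap of means among the 14 probes, -2.07, and also an interval of -4.52 to 0.38 (limma, adjusted p = 0.872). That gap includes 2 floor values with free Ub, and it was -1.77 without free Ub 1 and -1.77 without free Ub 3. With values under 4 log2 raised to 4 it was -0.01. Only PBS 1 lay above 4, so that setting could hardly show a gap. Over the refits without 1 array it ranged from -2.74 (without PBS 2, unadjusted p of 0.0394, adjusted p of 0.760) to -1.39 (without PBS 1, unadjusted p of 0.190). The third probe gave 1.54, 2.54 and 0.00 in free Ub intestines, against 0.01, 3.44 and 2.24 in PBS intestines, with both groups reaching the floor.

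CD2, an adhesion receptor that binds CD48 in mice, and CD5, a scavenger-type receptor that dampens receptor signals, were each read on 1 probe of low signal. Cd2 (chromosome 3, 101275908 to 101287939) had 1.68, 2.54 and 3.19 in free Ub intestines, against 3.48, 1.76 and 2.98 in PBS intestines. The arrays of both groups were interleaved, and the difference of -0.27 had an interval of -1.94 to 1.41 (limma, adjusted p = 0.979). Cd5 (chromosome 19, 10718107 to 10739026) was at the floor on all arrays but free Ub 2, where it read 0.59, so no fold is given.

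ZAP-70, the kinase that reads the phosphorylated CD3 and zeta chains, was the one member whose groups did not overlap. Zap70 (chromosome 1, 36761798 to 36782821) had 6.188, 6.167 and 6.172 in free Ub intestines, against 6.570, 6.317 and 6.195 in PBS intestines on its brightest probe. The 3 free Ub arrays were nearly alike, with an SD of 0.01 against 0.19 for PBS, and the lowest PBS array lay just above the highest free Ub array. The difference was -0.18 with an interval of -0.47 to 0.10 (limma, adjusted p = 0.872), or 0.724-fold to 1.07-fold. An exact two-sided permutation test gave p = 0.1, the smallest that 3 against 3 allows.

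The share of members with lower, non-overlapping groups, 1 of 8, stands beside 6.69% of all genes, and 0 of 8 had higher, non-overlapping groups, beside 3.74% of all genes. Without PBS 3 the Zap70 difference was -0.27 with an unadjusted p of 0.0495 and an adjusted p of 0.667 in limma, which made Zap70 the 1 member to pass at an unadjusted p in that refit. The difference shrank to -0.08 without PBS 1, the highest array on this probe, and to -0.08 with array weights. The other Zap70 probes did not share the separation. The second gave 4.65, 4.28 and 4.996 in free Ub intestines, against 4.66, 4.97 and 4.52 in PBS intestines, and the third 4.17, 3.71 and 3.63 in free Ub intestines, against 3.29, 3.87 and 3.41 in PBS intestines. Their differences were -0.07 and 0.31, and with the mean of the 3 probes the sign for Zap70 turned, to 0.02.

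Lat, the adaptor phosphorylated by ZAP-70, lies on chromosome 7 from 126363827 to 126369705. Its brightest probe gave 4.26, 4.41 and 4.30 in free Ub intestines, against 3.75, 4.45 and 4.97 in PBS intestines, so that the PBS arrays held both extremes. The difference was -0.07 with an interval of -0.95 to 0.82 (limma, adjusted p = 0.979), and it was 0.22 without PBS 3. The other Lat probe was at the floor on all arrays but PBS 1, where it read 0.62.

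**Figure D2:**
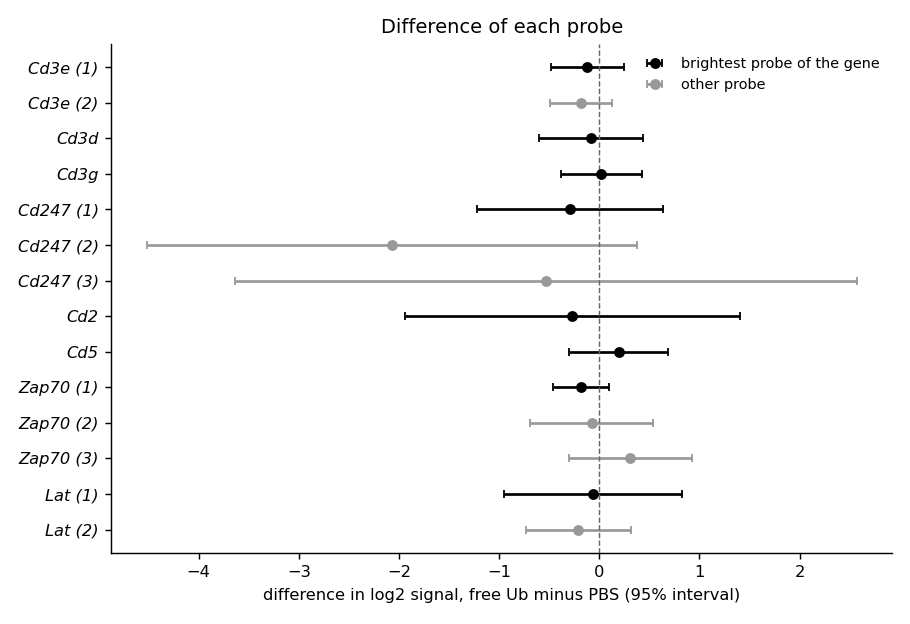
Difference in log2 signal, free Ub minus PBS (horizontal axis), with 95% intervals from limma for the 14 probes (rows), black for the brightest probe of each gene and grey for the others. All 14 intervals include 0. Those of both Cd3e probes, Cd3d, Cd3g and the brightest Zap70 probe lie between -0.60 and 0.43, and those of Cd2 and the 3 Cd247 probes reach below -1.

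How small a difference could be seen depended on the signal of the probe. Over all genes, the median SD within groups was 0.952 for a mean log2 signal of 0 to 2, 0.819 for 2 to 4, 0.341 for 4 to 6, 0.224 for 6 to 8 and 0.173 for 8 to 15. Cd3e, Cd3d, Cd3g and Zap70 had means above 6, Cd247 and Lat lay between 4 and 6, and Cd2 and Cd5 were below. A probe's signal also depends on its sequence, so that the levels of different genes were not set against each other.

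The members did not follow one common order of the arrays. On PBS 3 the deviations from each gene's own mean averaged 0.17 over the 8 members, the highest of the arrays, and on free Ub 3 they averaged -0.10, the lowest, with 7 of 8 members below their own mean. Free Ub 1, free Ub 2, PBS 1 and PBS 2 averaged -0.04, -0.00, 0.07 and -0.10. Cd3e and Cd3g were correlated over the 6 arrays at r = 0.68 and Cd3e and Cd3d at 0.56, whereas Cd3d and Cd3g had 0.04. Cd3g and Lat had 0.91, with PBS 1 low and PBS 3 high in both, and Cd3g and Zap70 had -0.72. These r values describe 6 points that share their arrays and their 2 groups.

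**Figure D3:**
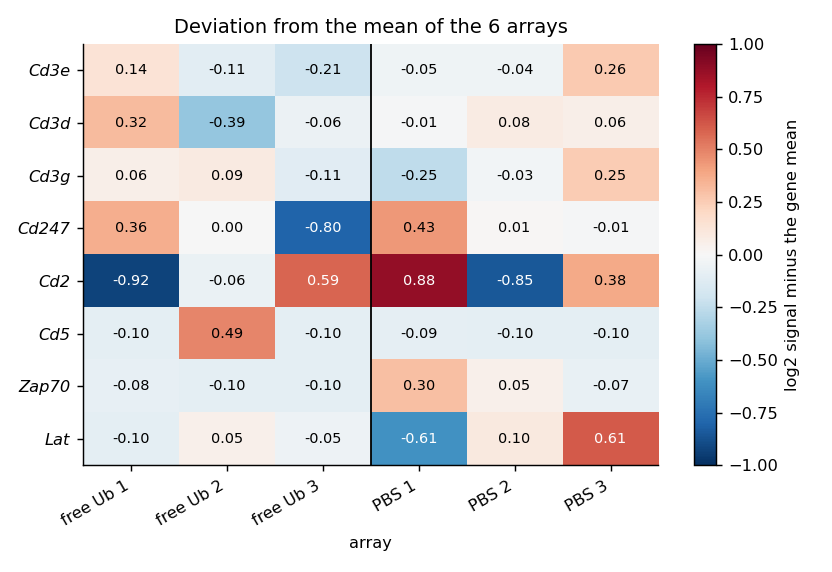
Log2 signal of the brightest probe of each member minus its mean over the 6 arrays (rows, genes; columns, arrays, free Ub left of PBS; red above and blue below the mean). PBS 3 is red in Cd3e, Cd3g, Cd2 and Lat, PBS 1 is blue in Cd3g and Lat but red in Cd247, Cd2 and Zap70, and no column is of one colour throughout.

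The genes whose brightest probes most resembled the mean deviation of the 8 members were Hic1, Ifitm2, Ror2, Col6a2 and Camkk2. They were the top 5 of 5361 genes compared by Pearson r over the 6 arrays, with r = 0.97 for Hic1, Ifitm2, Ror2 and Col6a2 and 0.94 for Camkk2, and 27 genes reached 0.9. Hic1 encodes a transcriptional repressor, Ror2 a receptor of Wnt5a and Col6a2 a collagen VI chain. With a profile of the bright members Cd3d, Cd3e, Cd3g and Zap70 alone, a choice made after the values were seen, the top 5 were Sec61b, Polr2j, Ndufaf8, Syce3 and Tmsb10, and 0 genes stood in both top 5.

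The variable chains of the receptor could be read through 6 gene segments on the array, chosen by their symbols after the values were seen, while the constant regions Trac, Trbc1, Trbc2, Trgc1, Trgc2 and Trdc had no listed probe. Trbv13-1, a beta chain segment, had 3.46, 3.37 and 3.65 in free Ub intestines, against 3.75, 4.32 and 4.21 in PBS intestines. The groups did not overlap, and the difference of -0.60 (interval -1.08 to -0.12) had an adjusted p of 0.828 in limma and was -0.18 with values under 4 log2 raised to 4. The related segment Trbv13-2 had 8.15, 7.64 and 7.56 in free Ub intestines, against 7.84, 7.72 and 7.86 in PBS intestines, a difference of -0.03.

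The gamma chain segments had differences of either sign. Trgv4 differed by 0.03, Trgv5 by 0.12 and Trgv7 by 0.24 (limma, adjusted p of 0.979, 0.979 and 0.887), and Trgv6, with a difference of -0.34, reached the floor in both groups. With array weights Trgv4, Trgv5 and Trgv7 turned to -0.16, -0.44 and -0.00.

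Of a wider list of 53 genes of T cell receptor signalling outside the members, 50 had a probe, 28 were lower in mean, 21 higher and 1 at the floor on all arrays. In limma 2 passed an unadjusted p under 0.05, both higher, beside the 2.34% of all genes that were higher at that threshold, and 0 passed an adjusted p. The median difference was -0.07. Malt1, the paracaspase that passes the signal to NF-kappaB, had 4.64, 4.75 and 4.61 in free Ub intestines, against 4.42, 4.38 and 4.46 in PBS intestines. The groups did not overlap, and the difference of 0.25 had an adjusted p of 0.565, while the mean of the Malt1 probes turned the sign (-0.09). Pag1, the adaptor that holds CSK near LCK, read 2.25, 0.99 and 1.48 in free Ub intestines, against floor values on all 3 PBS arrays (limma, adjusted p = 0.586).

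Cd8b1, the CD8 beta chain, was among the bright T cell probes. It had 10.41, 10.59 and 10.19 in free Ub intestines, against 10.69, 10.73 and 10.62 in PBS intestines, without overlap. The difference was -0.29 with an interval of -0.59 to 0.02 (limma, adjusted p = 0.872), and -0.18 with the mean of its probes. Cd8a, the CD8 alpha chain, was higher in mean by 0.97 on a dim probe with 2 floor values in PBS. With the mean of the Cd8a probes the difference was 0.07. Themis, needed for thymocyte selection, had 3.45, a floor value and 1.00 in free Ub intestines, against 4.198, 3.51 and 3.28 in PBS intestines (limma, adjusted p = 0.872). The difference was -2.18, and -0.07 with values under 4 log2 raised to 4, a setting that left only PBS 1 above 4.

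Some direct partners of the members, picked for their role after the values were seen, filled in the steps around them. The kinase CSK, which holds LCK inactive, averaged 8.65 ± 0.22 for Csk with free Ub and 8.75 ± 0.02 with PBS (SD, n = 3 each). The exchange factor gene Vav1 averaged 6.60 ± 0.10 with free Ub and 6.81 ± 0.26 with PBS, and Cd6, the CD5 relative, 5.79 ± 0.31 with free Ub and 6.10 ± 0.46 with PBS. In limma their adjusted p values lay at 0.938, 0.872 and 0.875. The LCK relative Fyn, the phosphatase Ptprc that activates LCK, the LAT partners Lcp2, Grap2 and Plcg1, the CD2 ligand Cd48 and the co-receptors Cd4 and Cd8a were read on probes with means below 3, with adjusted p of 0.872 to 0.994 in limma.

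Markers of the T cell lineage gave counts in both directions. Of 28 genes, 19 had a probe, 10 lower and 9 higher in mean, with a median difference of -0.03, and 1 passed an unadjusted p as lower and 2 as higher, beside 3.4% and 2.34% of all genes. Bcl11b, a transcription factor that keeps T cell identity, had 8.19, 8.48 and 8.15 in free Ub intestines, against 8.53, 8.66 and 8.51 in PBS intestines. Its groups did not overlap, and the difference of -0.29 passed an unadjusted p in limma, with an adjusted p of 0.872. The mean of the Bcl11b probes gave -0.00, and the pass at an unadjusted p was also lost with array weights, with an intensity trend and with 1 probe per gene. Cd96, an adhesion receptor of T and NK cells, was higher in mean by 0.45 (limma, adjusted p = 0.872), against 0.16 with the mean of its probes and 0.21 with values under 4 log2 raised to 4. Thy1, the T cell surface protein CD90, had a difference of -0.48 whose sign turned (0.23) with the mean of its probes.

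Gata3, a transcription factor of helper T cells, innate lymphoid cells and some epithelia, was the 1 gene of the T cell lists to pass an adjusted p (limma, 0.00092), with 2.35, 2.40 and 2.45 in free Ub intestines and floor values on the 3 PBS arrays. Its adjusted p was 0.674 with an intensity trend in the variances.

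**Figure D4:**
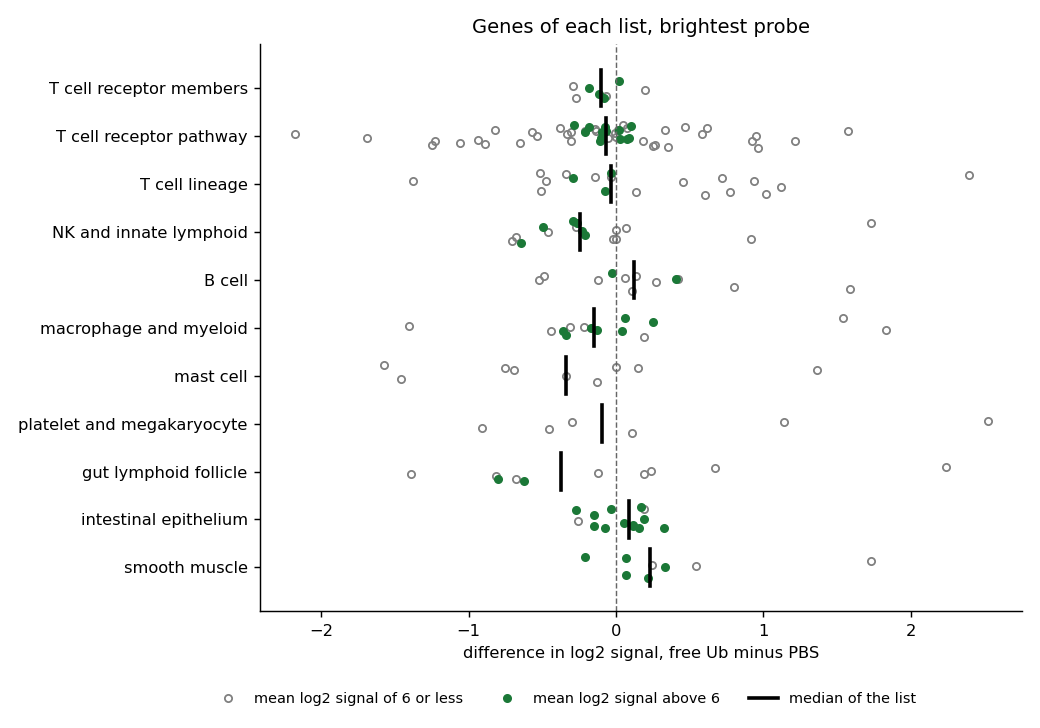
Difference in log2 signal, free Ub minus PBS (horizontal axis), for the brightest probe of each gene in the T cell receptor members and 10 lists (rows), filled where the mean log2 signal is above 6, with a black bar at the median of the list. The members lie between -0.29 and 0.19, and the genes with a difference beyond 1 log2 in either direction are all open circles.

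Genes of other cell types in the tissue were counted the same way. Against the label of intestine, 14 epithelial genes were read, of which 12 had a mean above 6 log2 and Fabp2 was at the floor on 3 arrays. Their level, as the mean over the list, ranged from 9.59 to 9.66 with free Ub and from 9.40 to 9.74 with PBS. The median difference was 0.09 for epithelium and 0.23 for 8 smooth muscle genes, whose mean level ranged from 7.64 to 8.12 with free Ub and from 6.55 to 8.22 with PBS. Natural killer and innate lymphoid genes were lower in mean for 11 of 16 and higher for 3, with a median of -0.25, and all 6 with a mean above 6 were lower in mean. At that signal 3250 of 6141 of all genes were lower in mean, as were 3 of 3 T cell lineage genes. The same held for 2 of 2 genes of the follicle list, Ccl21a and Gp2. Whether Gp2, with a mean of 10.10, reads follicles in these samples was not tested. So were 8 of 13 genes of the T cell receptor pathway list, 3 of 4 members and 4 of 7 myeloid genes. For B cell, epithelial and smooth muscle genes the counts were 1 of 2, 5 of 12 and 1 of 5. In the NK list Prf1, the pore protein of cytotoxic cells, had 7.40, 7.14 and 7.45 in free Ub intestines, against 8.26, 7.996 and 7.67 in PBS intestines (limma, adjusted p = 0.763), and the mean of the Prf1 probes turned the sign (0.23).

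The NK list's mean level ranged from 3.09 to 4.06 with free Ub and from 3.52 to 3.92 with PBS, and that of the T cell lineage list from 3.63 to 3.92 with free Ub and from 3.30 to 3.75 with PBS. B cell genes had a median difference of 0.12, myeloid genes -0.15, mast cell genes -0.34, platelet genes -0.09 and genes of gut lymphoid follicles -0.37. Among these lists Cma1, a mast cell chymase, was at -1.46 and Gp9, a platelet glycoprotein, at 2.52, both on dim probes and with adjusted p of 0.872 and 0.199 in limma. Fcer2a of B cells (1.59), Itgam of myeloid cells (1.83) and Cnn1 of smooth muscle (1.73) were also on dim probes, with adjusted p of 0.872 in limma. With the mean of its probes Fcer2a was at 0.01. With values under 4 log2 raised to 4 Cnn1 was at 0.07, a setting that left only free Ub 1 above 4. Ccl21a, a chemokine of lymphoid stroma, had 6.85, 6.35 and 6.99 in free Ub intestines, against 7.48, 6.89 and 7.69 in PBS intestines (limma, adjusted p = 0.872), and Cdx2, an epithelial transcription factor, had a difference of -0.27 (limma, adjusted p = 0.750). Whether the share of these cells bears on the T cell receptor values was not tested.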

How the data were processed

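Values came from the deposited table of 45281 probes on 6 arrays. The authors normalized the scanner signals in GenomeStudio (cubic spline), and the deposited values were read as log2 signals: no source states the transform or the handling of background. The column medians were equal to 2.55, 32.2% to 33.7% of probes per array lay within 0.01 of the array's lowest value (called the floor), 21349 probes were above it on all arrays, and arrays correlated at 0.949 to 0.968. Detection p-values and bead numbers were not used here, so whether a dim probe was detected is not known. The number of arrays limits the precision.

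Symbols came from the platform annotation, updated through RefSeq: 34885 probes had 1 symbol, 18 several and 10378 none, and probes with several were not named. Free Ub was set against PBS probe by probe with a two-sided moderated test (limma 3.58.1 under R 4.3.3, without covariates), and p-values were adjusted over all probes by the Benjamini-Hochberg method. The test was tried on simulated data first, without a floor and with changes added only to probes with a mean above 6 log2. That trial therefore does not cover differences on dim or floor probes. Genes were read on their brightest probe. Start regions were credited to RefSeq (GRCm38.p6).

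The members and lists were chosen with earlier results of these data known. Genes named were all members with every probe, up to 4 genes of each list with the smallest unadjusted p (4 for the T cell receptor pathway and the T cell lineage, 1 for the others), and the 5 genes most correlated with the mean deviation of the members among those with a mean above 4 log2 and an SD of at least 0.2. Alternatives were quantile normalization, median centring, a floor of 4 log2, bright probes only, paired and unpaired Student tests on the same values, a replicate block, an intensity trend, array weights, 1 probe or the mean of probes per gene, and leaving out each array.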

Additional observations from a re-analysis of the deposited data

How the results depend on the processing

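Over 17 alternative settings, 203 of 218 refits of member probes kept the direction and the side of the threshold and 15 changed direction. Across them 0 members passed an adjusted p (lowest 0.647). The replicate block, Student tests, intensity trend, bright probes only and 1 probe per gene leave a probe's difference unchanged. Its direction could not turn there, and quantile normalization and median centring hardly moved it, so the count was partly fixed in advance. The number of members lower at an unadjusted p under 0.05 was 0 in each setting but one and ranged from 0 to 1 when arrays were left out, the 1 being Zap70 without PBS 3. The median difference of the members ranged from -0.12 to -0.05 when arrays were left out, was -0.17 with array weights (0.256 for PBS 1 to 2.16 for PBS 3) and -0.13 over the 6 members that vary with values under 4 raised to 4.

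Same-numbered arrays did not deviate together: their deviations correlated at -0.003, 0.020 and -0.091. These correlations cannot decide whether the samples were handled in numbered pairs. With the replicate block the median was -0.10, and 0 members passed at an unadjusted p either in limma or in the methods' t-test, paired or unpaired. Gata3 lost its call with the block (limma adjusted p = 0.432, paired t-test 0.749) and with an intensity trend (0.674).

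Differences that changed direction ranged, when arrays were left out, from -0.10 to 0.15 for Cd3g, -0.26 to 0.08895 for Cd3d, -0.76 to 0.13 for Cd2, -0.002299 to 0.29 for Cd5, -0.55 to 0.03453 for the brightest Cd247 probe, -1.48 to 0.24 for the third, -0.25 to 0.10 for the second Zap70 probe and -0.39 to 0.22 for Lat. Around the members they ranged from -0.39 to 1.06 for Cd4, -1.67 to 0.08365 for Fyn, -0.90 to 0.76 for Grap2, -0.31 to 0.30 for Ptprc, -0.21 to 0.008971 for Csk, -0.21 to 0.08324 for Trbv13-2, -0.15 to 0.18 for Trgv4, -0.36 to 0.59 for Trgv5 and -0.80 to 0.57 for Trgv6.

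With array weights the direction turned for Cd3g (-0.13), Trgv4 (-0.16), Trgv5 (-0.44), Trgv6 (0.31), Trgv7 (-0.003974) and Ptprc (-0.37). When the probes of a gene were averaged it turned for Zap70 (0.01735), Malt1 (-0.09368), Thy1 (0.227), Prf1 (0.227), Trbv13-2 (0.548), Grap2 (0.01676) and Ptprc (-0.21). The causes were not tested.

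With 3 arrays per group, the intervals of the CD3 probes lie between -0.60 and 0.43 log2, and those of Cd2 and the Cd247 probes reach below -1 log2, so that for Cd2 and Cd247 only large differences were detectable.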
